A study of Mus musculus with 61 samples.

Results

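The 71 probe sets described here are those at which a single inbred mouse strain, A/J, C3H/HeJ, DBA/2J or FVB/NJ, stood apart from 5 other strains in every brain region measured. A probe set is the group of short probes on the array that reads 1 transcript. A probe set was a member when the signals on all arrays of the strain lay above, or all lay below, the signals on all arrays of the other 5 strains, the ratio of the means of both groups was at least 2 (means under 10 set to 10), and the larger mean was at least 100. H2- genes, Lin7c and Snhg14 were left out, which removed 3 probe sets. Of 45037 probe sets, 14 set A/J apart, 10 C3H/HeJ, 25 DBA/2J and 22 FVB/NJ. The members were thus selected on these signals, so the strain differences below are a description and carry no test.

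The study set strains against brain regions. RNA was taken from wild-type male mice of A/J, C3H/HeJ, DBA/2J, FVB/NJ, 129S6/SvEvTac and C57BL/6J, 8 weeks old and housed singly beforehand, and each RNA was labelled and hybridised to a 1-colour Affymetrix array. The regions were the pituitary gland, the hypothalamus, the hippocampus, the periaqueductal gray (pag) of the midbrain and the bed nucleus of the stria terminalis (bnst) in the forebrain, with 3 arrays for the bnst of C3H/HeJ and 2 for each of the other groups of strain and region, 61 in all. By the labels an array held tissue of 1 mouse for the hippocampus, of 2 or 3 for the bnst, of 1 or 2 for the hypothalamus and the pag, and of 5 for the pituitary, so the spread between single mice is not seen where tissue was pooled. Mice of an inbred strain share nearly all of their DNA, so the arrays of a strain repeat 1 genotype in males of 1 age.

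Inbred strains descend from few founders, and each strain has fixed its own combination of DNA variants. A variant near a gene can change how much of its RNA is made in every tissue, and such a gene differs between strains wherever it is expressed. On a short-probe array a variant or an alternative end of the transcript under the probes can also change the signal of 1 probe set while other probe sets of the same gene do not change. The sequences of the strains under the probes were not compared here.

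The signals are background-corrected and scaled intensities on a linear scale, with means per array of 180.5 to 200.5 and medians of 42.6 to 67.1. Replicate arrays of a group correlated at r = 0.937 to 0.988, with a median of 0.979. The number of arrays limits the precision. Neurod6, a marker of hippocampal neurons, had signals of 569 to 948 in the hippocampus and of at most 23.4 elsewhere, although the other markers fixed for the hippocampus did not separate it (Prox1 had 90.5 to 168 there and up to 165 in the pituitary, Spink8 88.2 to 357 there and up to 215 in the pituitary). Tph2, a marker of serotonin neurons, had 751 to 1542 in the pag and at most 17.9 elsewhere, while Pmch, a marker of the hypothalamus, was at 1520 or more in the bnst as well. Gh, which encodes growth hormone, had a signal of 9669 or more on all 12 pituitary arrays, and it also reached 1000 or more on 12 of 49 arrays of the other regions, of which 4 were of A/J, 1 of C3H/HeJ, 2 of DBA/2J, 3 of FVB/NJ and 2 of C57BL/6J. Prl and Pomc, which encode other pituitary hormones, reached that level on 1 and 2 of these 49 arrays. Mbp, a marker of oligodendrocytes, had a median of 71.2 and a highest signal of 3414 in the pituitary. Ttr, a marker of the choroid plexus, had 121 to 8514 in the bnst. The part of such signals in the region values below was not tested. No member was among the 30 markers of regions and cell types measured, or among the 17 measured genes with DNA variants known from textbooks. Of the latter, Dysf, Hc, Tyr, Tyrp1, Naip5, Cdh23, Tlr4, Pde6b, Gpnmb, Klrd1 and Fscn2 stayed under the larger mean that the rule requires. The highest of these means was 68.1, at Hc in A/J, so the rule could not admit the probe sets read for them. With 71 members among 45037 probe sets, finding none in lists this short says little.

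Members were few in each strain and either direction. In A/J, 10 probe sets lay wholly above the other strains (0.0222% of all) and 8 of them met the whole rule (0.0178%), while 7 lay wholly below (0.0155%) and 6 met the rule (0.0133%). In C3H/HeJ, 8 lay above (0.0178%) with 6 members (0.0133%), and 9 lay below (0.0200%) with 4 members (0.00888%). In DBA/2J, 11 lay above (0.0244%) with 8 members (0.0178%), and 29 lay below (0.0644%) with 17 members (0.0377%). In FVB/NJ, 5 lay above (0.0111%) with 4 members (0.00888%), and 26 lay below (0.0577%) with 18 members (0.0400%). Members lower in their strain thus outnumbered higher ones in DBA/2J and FVB/NJ and not in A/J or C3H/HeJ, and over the 4 strains 26 were higher and 45 lower. The same rule found 22 probe sets for 129S6/SvEvTac (5 higher and 17 lower) and 44 for C57BL/6J (28 higher and 16 lower). Of the 71 members, 47 name 1 gene each, 41 genes in all, 3 name several genes and 21 name none here, and the last 2 kinds are given by the identifier of the probe set.

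**Figure D1:**
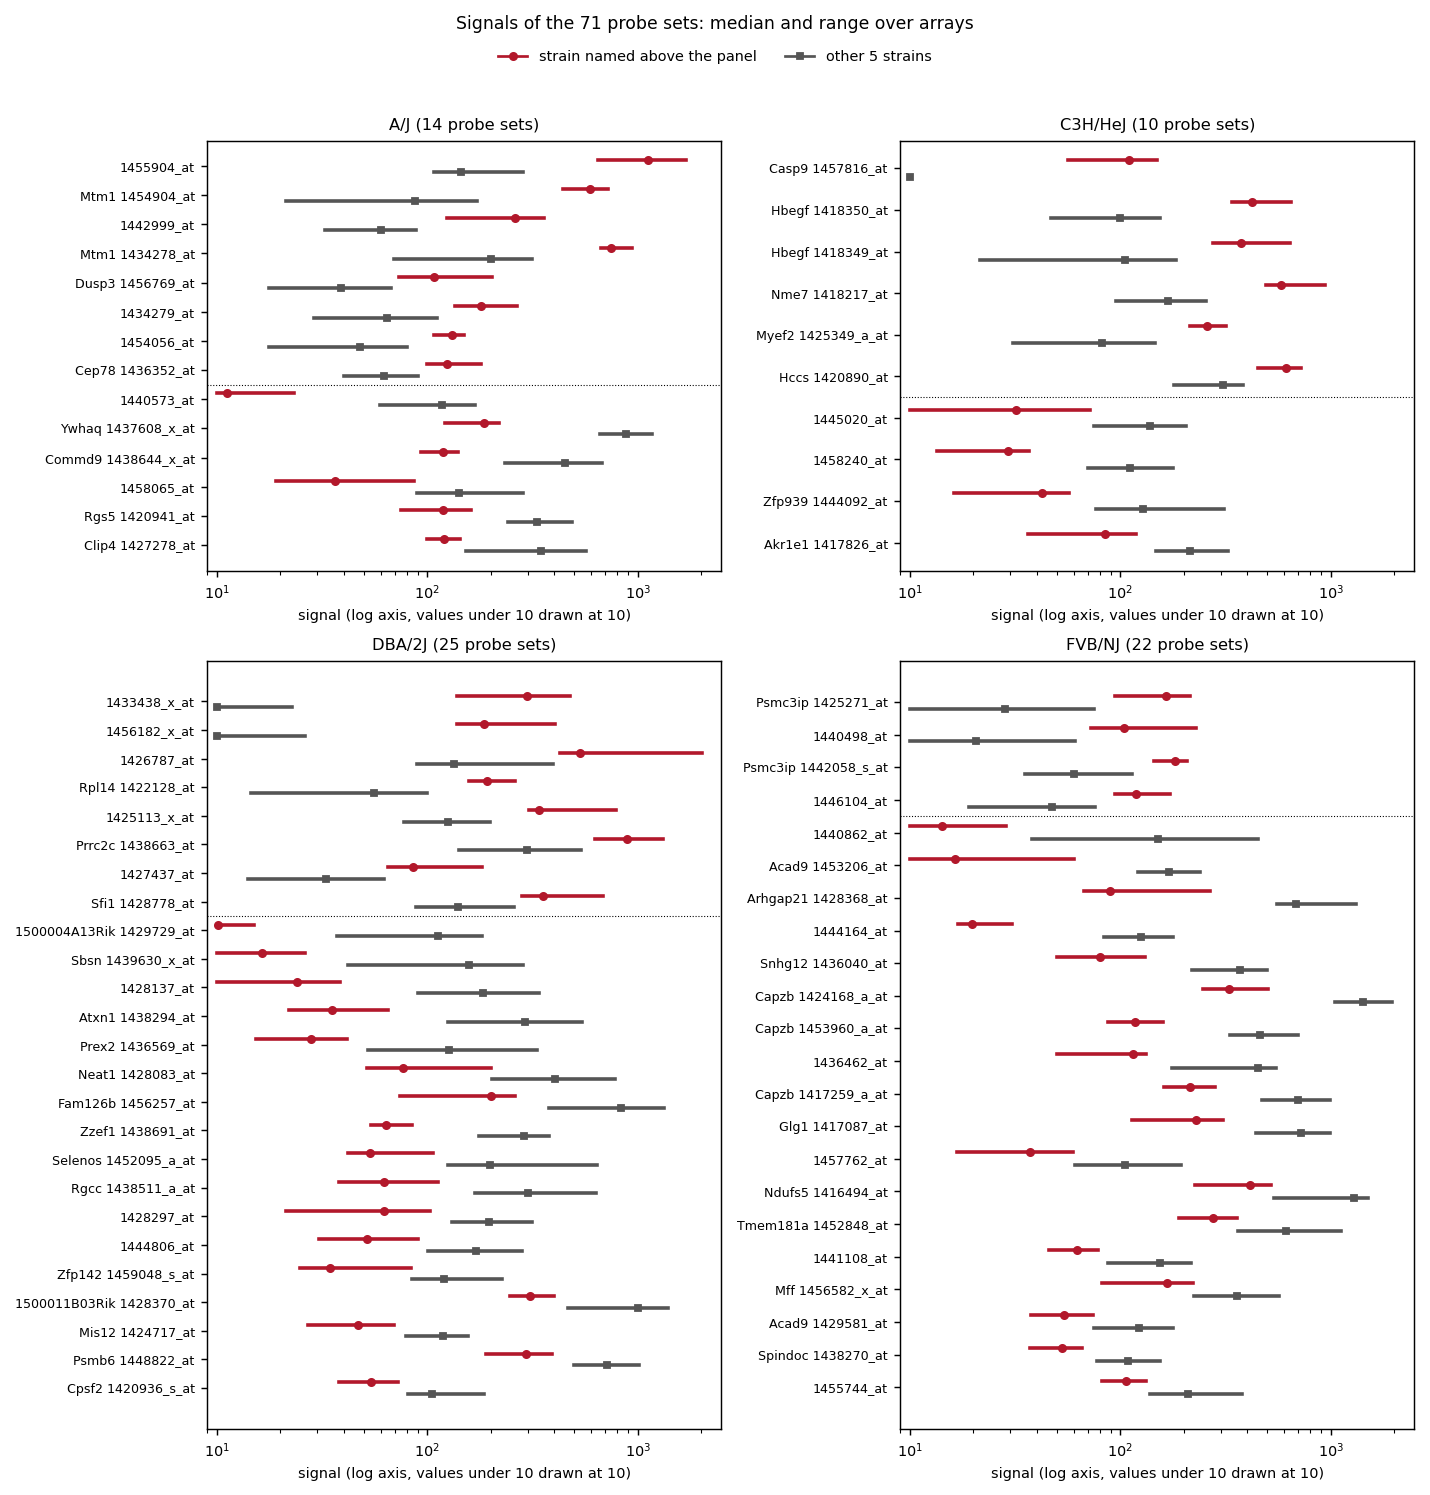
Signals of the 71 probe sets on a log axis, in a panel for each strain, with values under 10 drawn at 10. For each probe set the red dot and line give the median and the range over the arrays of the strain, the grey square and line those over the arrays of the other 5 strains, and the dotted line parts higher members from lower ones; red and grey lines of a probe set never overlap.

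In A/J the gene with the largest ratio was Mtm1 on the X chromosome, which encodes myotubularin, a phosphatase of membrane phosphoinositides whose loss causes an X-linked muscle disease in humans. Its probe set 1454904_at had a lowest, median and highest signal of 439.7, 595 and 721 on the 10 arrays of A/J, against 21.2, 87.4 and 172 on the 51 arrays of the other strains. The means were 585 ± 82.6 and 87.8 ± 39.2 (SD, n = 10 and 51 arrays), a ratio of 6.67. A second probe set of Mtm1, 1434278_at, had 669, 748 and 937 in A/J against 69.2, 201 and 313 in the other strains, a ratio of 3.87. Both of these probe sets thus placed every A/J array well above every other array, while the third, 1416934_at, did not reach a mean of 100 and overlapped, with 88.7 ± 15.3 in A/J against 75.9 ± 17.3 (SD). In tissue that holds many cell types, fewer cells of a type and less RNA per cell cannot be told apart. Dusp3, a dual-specificity protein phosphatase, had a median of 108 (72.9 to 203) in A/J against 38.8 (17.6 to 67.4) elsewhere, and Cep78, a protein of the centrosome, had 123 (99.1 to 179) against 62.2 (40.2 to 89.9). The probe set with the largest ratio of all A/J members that were higher, 1455904_at, names several genes and had a median of 1117 (647 to 1705) in A/J against 144 (107 to 284) in the other strains.

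The named genes that were lower in A/J belong to different cell functions. Ywhaq encodes 14-3-3 theta, an adaptor that binds phosphorylated proteins, and its probe set 1437608_x_at had a lowest, median and highest signal of 122, 186 and 218 in A/J against 659.8, 881 and 1167 in the other strains, a ratio of 4.72. Commd9, a protein of endosomal sorting, had 93.5, 119 and 139 in A/J against 233, 453 and 677 with 1438644_x_at, a ratio of 3.76. The groups were far apart at both of these probe sets. Of the other probe sets of Commd9, 1428155_at differed less, with 283 ± 70.2 in A/J against 358 ± 71.3 (SD) and overlap. The weaker 1454781_x_at had 16.5 ± 23.6 in A/J against 51.6 ± 22.4, also with overlap. Rgs5, which speeds the switching off of G proteins and is abundant in pericytes, had a median of 119 (74.8 to 161) in A/J against 334 (242 to 484). Clip4, a CAP-Gly protein of the kind that binds microtubules, had 119 (99.2 to 143) in A/J against 346 (153 to 566), and there the highest A/J array and the lowest of the others lay close together.

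In C3H/HeJ the growth factor Hbegf and the caspase Casp9 stood out. Hbegf encodes the heparin-binding EGF-like growth factor, a membrane-bound ligand of the EGF receptor, and both of its probe sets were members. With 1418350_at the lowest, median and highest signals were 339, 422 and 649 on the 11 arrays of C3H/HeJ against 46.7, 99.5 and 155 on the 50 arrays of the other strains. With 1418349_at they were 277, 374 and 639 in C3H/HeJ against 21.6, 106 and 183. The groups were separate at both, with ratios of 4.57 and 4.03. Casp9 encodes caspase 9, the initiator caspase of the mitochondrial path to apoptosis. Its probe set 1457816_at had 56.2, 110 and 149 in C3H/HeJ, against -28.1, -8.45 and 7.37 in the other strains, where it lay near 0. With the mean of the other strains set to 10, C3H/HeJ was at least 10.1-fold higher.

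Nme7, a member of the nucleoside diphosphate kinase family, had a median of 577 (491 to 935) in C3H/HeJ against 168 (95.4 to 254). Myef2, a repressor of the myelin basic protein gene, had 258 (214 to 319) against 81.5 (30.7 to 146). Hccs, the enzyme that attaches heme to cytochrome c, had 613 (452 to 726) in C3H/HeJ against 306 (179 to 382), and its ratio of 2.01 was the smallest of the C3H/HeJ members. The named genes lower in C3H/HeJ were Akr1e1, an aldo-keto reductase, with 84.6 (36.2 to 119) against 214 (148 to 326), and Zfp939, a zinc finger protein, with 42.2 (16.2 to 56.96) against 128 (76.6 to 310.3).

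The promoter of Casp9 is shown because all 3 of its probe sets that reach a mean of 100 were higher in C3H/HeJ (below). It is the RefSeq sequence of GRCm38.p6, which is that of C57BL/6J, at chr4:141793362-141793661 on the forward strand, 300 bases around the annotated start. Capitals mark the GC box GGGCGG, read on either strand and with overlapping matches allowed, of which it holds 4; the CCAAT box was searched in the same way.
Casp9: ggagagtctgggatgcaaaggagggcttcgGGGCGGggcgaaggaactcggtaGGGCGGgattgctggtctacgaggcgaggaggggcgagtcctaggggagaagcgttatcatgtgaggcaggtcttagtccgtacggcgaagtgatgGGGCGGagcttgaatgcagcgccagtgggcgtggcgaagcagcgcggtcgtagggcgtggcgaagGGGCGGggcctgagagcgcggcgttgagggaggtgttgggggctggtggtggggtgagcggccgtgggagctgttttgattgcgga
Of the 41 named genes, 34 have such a window, with 42 windows in all. GGGCGG or its reverse complement was in 24 of the 42 windows (57.1%) and in 35.7% of all 32851 windows of the table, CCAAT or its reverse complement in 18 (42.9%) against 37.4%, and TATAAA or its reverse complement in 1 (2.38%) against 13.6%. A match is a run of letters and not a known binding site, and which letters differ between the strains was not examined.

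DBA/2J had the largest ratios of the 4 strains. Of its 8 higher members, 1433438_x_at and 1456182_x_at, which name no gene here, were near 0 in every other strain. With 1433438_x_at the lowest, median and highest signals were 138, 296 and 477 on the 10 arrays of DBA/2J, against -7.08, 3.09 and 22.6 on the 51 arrays of the other strains, at least 29.0-fold with the mean of the others set to 10. With 1456182_x_at they were 138, 186 and 406 in DBA/2J against -11.7, 0.00 and 26.3, at least 22.1-fold. A signal at background in 5 strains and well above it on all 10 DBA/2J arrays was thus shared by both. Prrc2c, a large proline-rich protein, had a median of 892 (624 to 1316) in DBA/2J against 298 (142 to 538), and Rpl14, a protein of the large ribosomal subunit, had 192 (158 to 262) against 55.9 (14.5 to 99.2). Sfi1, a centrosomal protein that binds centrins, had 355 (281 to 681) in DBA/2J against 140.2 (88.5 to 259). A further probe set, 1426787_at, lists Sfi1 together with LOC100861749 and had 531 (426 to 2025) against 134 (89.7 to 394).

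The 17 members that were lower in DBA/2J included genes of unlike known roles. Atxn1, whose human form carries the expanded glutamine repeat of spinocerebellar ataxia, had with 1438294_at a lowest, median and highest signal of 22.0, 35.3 and 65.2 in DBA/2J against 126, 292 and 543 in the other strains, a ratio of 7.45. Prex2, an exchange factor that activates Rac, had 15.3, 28.0 and 41.5 in DBA/2J against 52.2, 127 and 332, a ratio of 5.04. The groups did not meet at either gene, although the lowest arrays of the other strains at Prex2, which were of the pituitary, came near. Neat1, the long non-coding RNA on which nuclear paraspeckles are built, had 51.6, 76.6 and 201 in DBA/2J against 203, 404 and 778, so that the highest DBA/2J array was just under the lowest of the others. Sbsn, which encodes suprabasin, a protein best known from the epidermis, had a median of 16.4 (8.53 to 26.1) against 157 (41.8 to 284). 1500004A13Rik had 10.2 (0.19 to 15.0) against 113 (37.1 to 181), at least 10.9-fold lower with the DBA/2J mean set to 10.

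Psmb6 encodes a catalytic subunit of the 20S proteasome, and its 1448822_at had a median of 295 (191 to 393) in DBA/2J against 712 (497 to 1010), a ratio of 2.47. Selenos, a selenoprotein of the endoplasmic reticulum that takes part in the removal of misfolded proteins, had 53.1 (41.7 to 107) against 198 (126 to 640.5) with 1452095_a_at. Both groups were separate there, but the other probe sets of Selenos did not show the difference (below). Fam126b, a paralog of the hyccin that holds a phosphatidylinositol kinase at the plasma membrane, had 201 (74.0 to 260.4) in DBA/2J against 837 (380.5 to 1327), and Zzef1, a zinc finger and EF-hand protein, had 63.5 (53.9 to 84.9) against 288 (175 to 377). Rgcc, a regulator of the cell cycle, had 62.5 (38.0 to 112) against 302 (168 to 632). The remaining named genes were Mis12 of the kinetochore with 46.8 (27.1 to 69.3) against 119 (79.2 to 155), Zfp142 with 34.2 (24.6 to 83.7) against 120.3 (84.5 to 226), 1500011B03Rik with 309 (247 to 398) against 1008 (467 to 1396), and Cpsf2, a factor of mRNA cleavage and polyadenylation, with 53.7 (38.2 to 72.2) against 105 (80.7 to 187). Cpsf2 had the smallest ratio of the DBA/2J members, 2.04.

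In FVB/NJ the clearest member gene was Capzb, the beta subunit of the protein that caps the growing ends of actin filaments, with 3 member probe sets. With 1424168_a_at the lowest, median and highest signals were 247, 328 and 503 on the 10 arrays of FVB/NJ against 1051, 1432 and 1963 on the 51 arrays of the other strains. With 1453960_a_at they were 87.1, 117 and 160.2 in FVB/NJ against 330.4, 462 and 701, and with 1417259_a_at 160.4, 215 and 281 against 469.9, 702 and 992. All 3 probe sets were thus separate, with ratios of 4.24, 3.97 and 3.28, and the remaining probe set of Capzb, 1431668_at, was near background in FVB/NJ (17.3 ± 8.52, SD) and in the other strains (18.2 ± 8.03). Psmc3ip, a cofactor of strand exchange in meiotic recombination, was the gene that was higher, with 2 member probe sets. Its 1425271_at had 94.3, 165 and 214 in FVB/NJ against 0.35, 28.2 and 74.6, and its 1442058_s_at 144, 182 and 208 against 35.2, 60.2 and 114. The groups were separate at both, with ratios of 5.47 and 2.85.

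The promoters of these genes are shown for the same reason as that of Casp9, that several probe sets moved together. They are RefSeq sequences of GRCm38.p6, written in the direction of the gene, with GGGCGG and CCAAT on either strand in capitals. That of Capzb is at chr4:139193861-139194160 (forward strand) and that of Psmc3ip at chr11:101095386-101095685 (reverse strand).
Capzb: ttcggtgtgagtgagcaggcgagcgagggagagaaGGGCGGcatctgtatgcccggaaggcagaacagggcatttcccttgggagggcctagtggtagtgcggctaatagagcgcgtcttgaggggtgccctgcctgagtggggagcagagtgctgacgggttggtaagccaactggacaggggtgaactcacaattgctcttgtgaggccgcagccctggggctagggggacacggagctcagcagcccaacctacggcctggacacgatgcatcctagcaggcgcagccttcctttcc
Psmc3ip: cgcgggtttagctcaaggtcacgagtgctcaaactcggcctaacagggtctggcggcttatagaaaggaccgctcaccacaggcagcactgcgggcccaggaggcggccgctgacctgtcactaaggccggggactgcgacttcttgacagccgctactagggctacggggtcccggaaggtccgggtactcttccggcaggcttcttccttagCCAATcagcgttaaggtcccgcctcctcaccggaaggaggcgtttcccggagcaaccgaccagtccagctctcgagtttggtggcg
The window of Capzb holds 1 GC box and no CCAAT, and that of Psmc3ip no GC box and 1 CCAAT.

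Among the genes lower in FVB/NJ, Acad9, an assembly factor of respiratory complex I in mitochondria, had with 1453206_at a lowest, median and highest signal of 0.00, 16.4 and 60.4 in FVB/NJ against 121, 170.2 and 239 in the other strains, a ratio of 7.51, and with 1429581_at 37.7, 54.0 and 74.0 against 75.2, 123 and 177, a ratio of 2.25. Ndufs5, a subunit of complex I, had 226, 413 and 521 in FVB/NJ against 536, 1284 and 1512, a ratio of 2.84. The FVB/NJ arrays lay far from the others at 1453206_at and close to the lowest of them at 1429581_at and Ndufs5. Mff, the receptor of the fission enzyme Drp1 on the outer mitochondrial membrane, had a median of 167 (81.7 to 221) against 358 (224 to 568).

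Arhgap21, a protein that acts at the Golgi, had with 1428368_at a median of 89.5 (67.5 to 266) in FVB/NJ against 686 (557 to 1324), a ratio of 6.82. Glg1, a sialoglycoprotein of the Golgi, had 229 (114 to 308) against 719 (440.5 to 997), and Snhg12, a host gene of small nucleolar RNAs, had 80.4 (49.9 to 130.3) against 369 (219 to 496). Tmem181a, a membrane protein, had 277 (189 to 357) against 612 (364 to 1119), and Spindoc, a partner of the chromatin reader spindlin, had 52.6 (37.3 to 66.0) against 109 (77.4 to 154). The largest ratio of all FVB/NJ members, 12.4, belonged to 1440862_at, which names no gene here and had 14.2 (-6.57 to 28.4) in FVB/NJ against 152 (37.8 to 450.3).

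**Figure D2:**
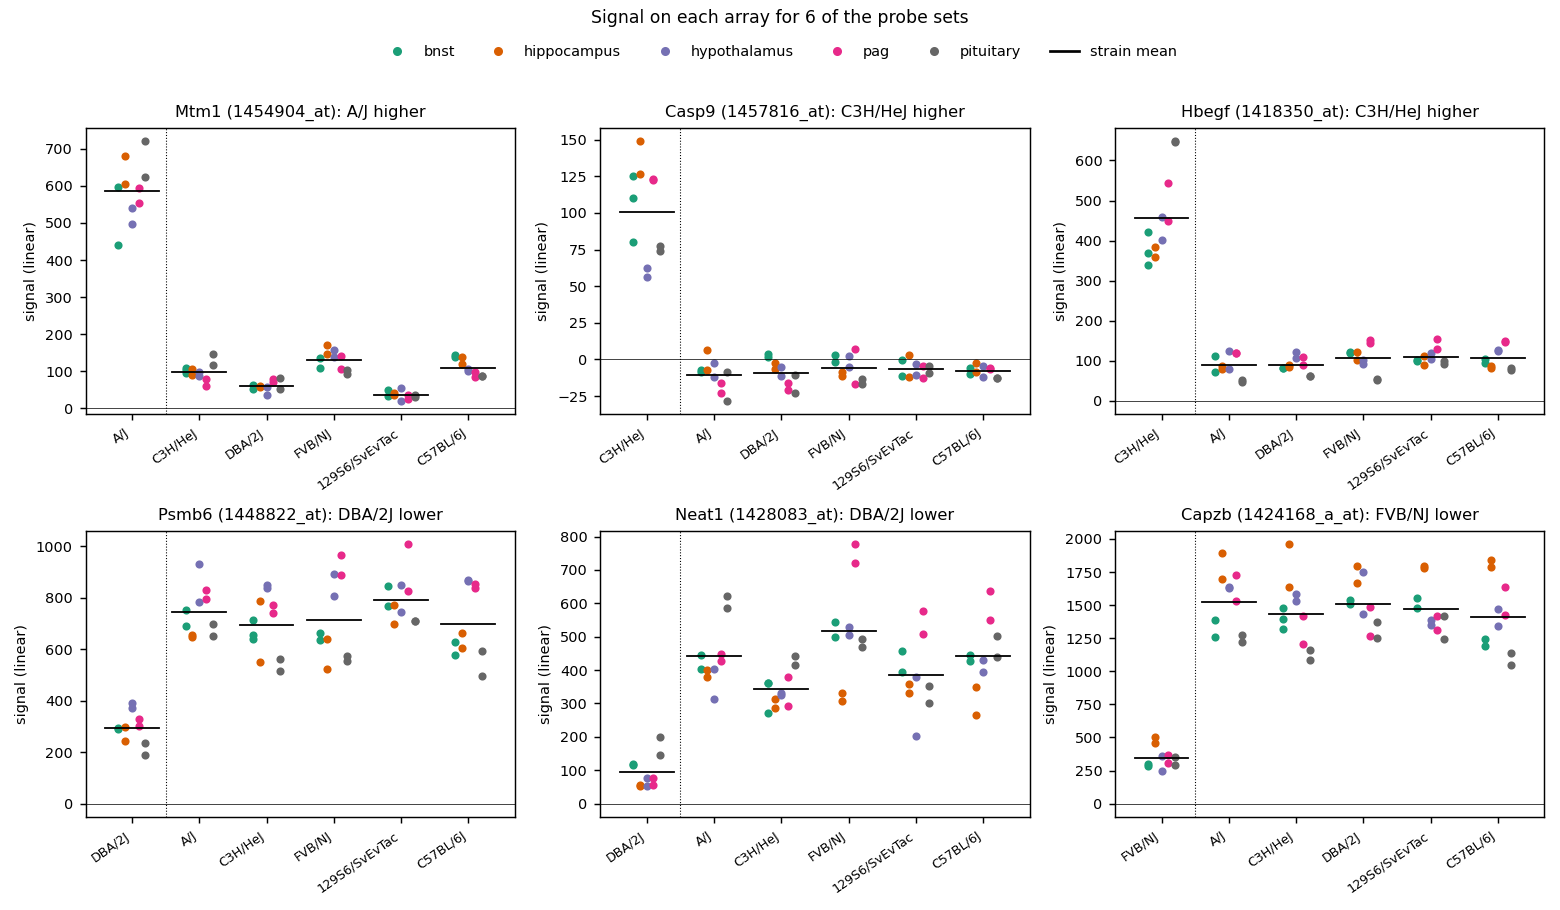
Signal on a linear scale on each of the 61 arrays for 6 of the probe sets, with the strain that stands apart at the left of the dotted line; points are arrays coloured by region, and black lines are strain means. Each of the 6 places every array of the left strain outside the others, and Hbegf in C3H/HeJ is highest on the 2 pituitary arrays (646 and 649), while Neat1 in DBA/2J comes nearest to the other strains there (145 and 201).

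The values just inside and just outside the limits of the rule were as follows. For A/J the ratio was 2.10 at Cep78, just inside, and 1.95 at Ywhaq 1436846_x_at, just outside. For C3H/HeJ it was 2.01 at Hccs and 1.89 at Casp9 1437537_at, for DBA/2J 2.04 at Cpsf2 and 1.95 at Eef1akmt1, and for FVB/NJ 2.10 at 1455744_at and 1.61 at Yae1d1. At the limit on the larger mean, C3H/HeJ had 101 at Casp9 1457816_at inside and 86.6 at Mbd4 outside, DBA/2J had 102 at 1427437_at and 96.9 at Ptch1, and FVB/NJ had 109 at 1457762_at and 94.4 at 1456933_at. For A/J the innermost was 1440573_at with 115, and no separated probe set with a large enough ratio fell outside.

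Whether the other probe sets of a gene showed the same difference divided the genes. Of the 41 named genes, 31 have 69 other probe sets, and 39 of these, for 22 genes, reach a mean of 100 in the strain or in the others. At those 39 the signal differed in the direction of the member at 28, by at least 2-fold at 5, by at least 2-fold in the opposite direction at 0 and by less than 1.25-fold at 25. The median absolute log2 ratio was 0.22 over the 39 and 1.82 over the members. Over all probe sets that reach a mean of 100, the share with a 2-fold difference was 0.849% for A/J, 0.709% for C3H/HeJ, 0.955% for DBA/2J and 0.982% for FVB/NJ, the share under 1.25-fold was 91.4%, 93.6%, 93.2% and 93.0%, and the median absolute log2 ratio was 0.07 to 0.09. These are signals of the contrast that chose the members and are given without a test.

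In 1 kind of gene more than 1 probe set moved. Casp9 had a mean of 151 ± 28.0 (SD, n = 11) in C3H/HeJ against 72.7 ± 17.1 (n = 50) with 1426125_a_at, a ratio of 2.07, and 201 ± 59.7 against 106 ± 16.4 with 1437537_at, a ratio of 1.89 with no overlap. Hccs had 315 ± 56.8 in C3H/HeJ against 173 ± 36.5 with its other probe set. Sbsn had 7.92 ± 7.46 (n = 10) in DBA/2J against 136 ± 52.3 (n = 51) with 1459897_a_at, and Clip4 had 66.9 ± 16.8 in A/J against 183 ± 60.0 with 1453278_a_at and 42.2 ± 18.7 against 123 ± 44.3 with 1429752_x_at, although 207 ± 46.6 against 253 ± 57.7 with 1435504_at. Together with Mtm1, Hbegf, Capzb, Psmc3ip and Acad9, whose 2 or 3 probe sets with such a level were all members, these are genes at which more than 1 probe set read a difference between strains of about 2-fold or more. Fam126b was graded, with a log2 ratio of DBA/2J over the other strains of -2.13 at the member and of -1.22, -0.79 and -0.19 at 3 others. Ywhaq had a log2 ratio of A/J over the other strains of -2.24 at the member and of -0.96 at 1436846_x_at. At the rest of its 7 others the log2 ratio was -0.41 to 0.00, so most of its probe sets differed little.

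In the other kind 1 probe set at this level differed and the others at this level did not follow. Atxn1 had 312 in DBA/2J against 323 in the other strains with 1434451_at, although its member probe set was 7.45-fold lower. Arhgap21 had 557 in FVB/NJ against 514 with 1428369_s_at, and Selenos had 581 in DBA/2J against 609.8 with 1448704_s_at. The probe sets next to the members thus showed log2 ratios of -0.05, 0.11 and -0.07, against -2.90, -2.77 and -2.09 at the members. Zzef1, Zfp142, 1500011B03Rik and Cpsf2 also had other probe sets within 1.25-fold, and Prrc2c had 303 in DBA/2J against 404 with 1429433_at, on the side opposite to its member. Dusp3 and Rgs5 had such probe sets too, but a further one of each, just under a mean of 100, differed in the direction of the member. That of Dusp3, 1425608_at, had 98.6 ± 27.4 in A/J against 60.1 ± 18.2, and that of Rgs5, 1420940_x_at, had 24.6 ± 7.74 in A/J against 98.1 ± 90.0, both with overlap. Commd9 had a log2 ratio of A/J over the other strains of -1.91 at the member and of -0.34 at 1428155_at. At the weaker 1454781_x_at it was -1.64. For genes of this kind a change in the amount of RNA and a change at the probes of 1 probe set cannot be told apart.

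**Figure D3:**
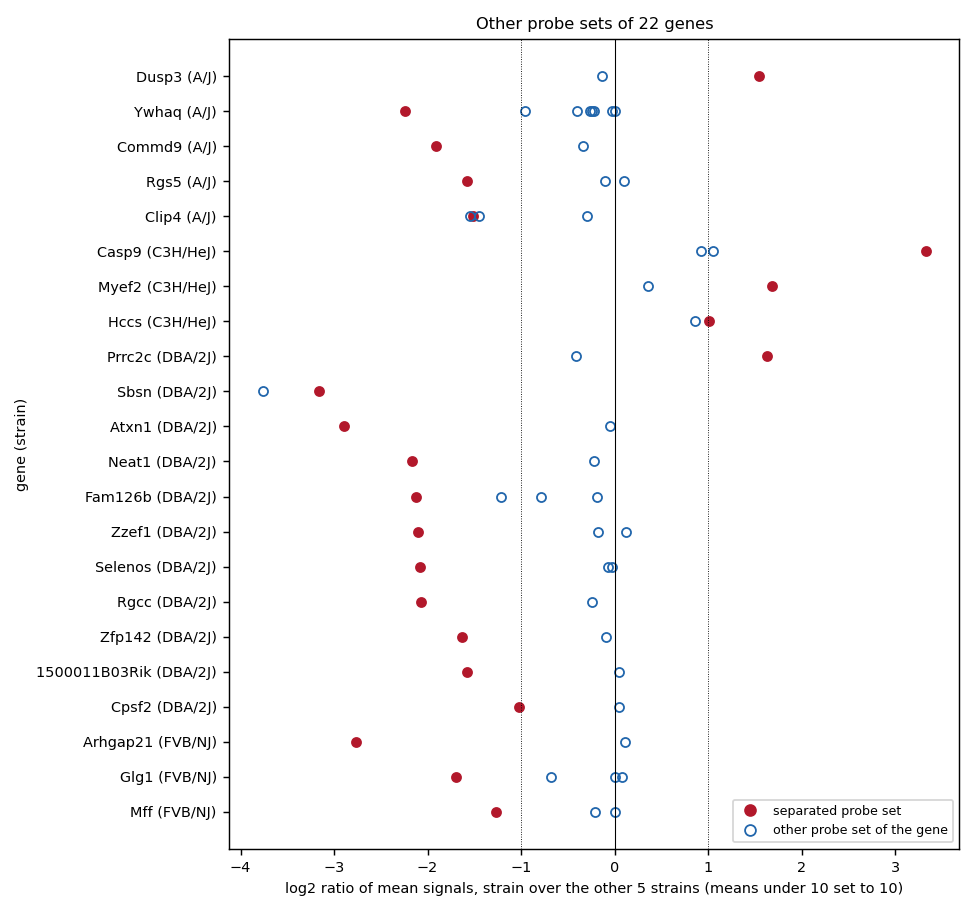
Log2 ratio of mean signals, strain over the other 5 strains, for the 22 genes with other probe sets at a mean of 100 or more; filled red dots are members, open blue dots are the other probe sets of the gene, and dotted lines mark 2-fold. Blue dots of Clip4, Casp9, Hccs and Sbsn lie near or beyond the 2-fold line on the side of the member, and most of the others lie near 0.

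All 71 members kept the direction of their strain in each of the 5 regions, which the rule itself requires. The rule did not compare regions, but it bears on how far the level can vary between them, since no array of any region may cross. The counts below are thus shaped by the choice of the members. Regions were compared on the higher side of each member (limma, F test, Benjamini-Hochberg over 44065 probe sets). This was the strain itself for higher members and the mean of the other 5 strains for lower ones. Regions differed for 44 of the 45 lower members and for 13 of the 26 higher ones. By strain, 2 of 8 higher members differed in A/J, 3 of 6 in C3H/HeJ, 7 of 8 in DBA/2J and 1 of 4 in FVB/NJ. The background within these strains was 48.7%, 49.9%, 50.3% and 50.1% of all probe sets, and 81.6%, 82.2%, 82.7% and 82.3% of those with a mean of 100 or more. For lower members the counts were 6 of 6, 4 of 4, 17 of 17 and 17 of 18, against a background in the mean of the other strains of 71.3%, 69.4%, 69.4% and 70.3%, and of 96.7%, 96.6%, 96.4% and 96.8% at a mean of 100 or more, so the lower members were near the background of well-measured probe sets. The mean of 5 strains rests on more arrays than 1 strain does, so the counts of higher and of lower members cannot be set against each other.

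The highest and the lowest region varied among the members. Of the 57 that differed, the pituitary was the highest region for 19 and the lowest for 20, the hippocampus the highest for 15 and the lowest for 16, the hypothalamus the highest for 14 and the lowest for 4, the pag the highest for 6 and the lowest for 9, and the bnst the highest for 3 and the lowest for 8. The background was all probe sets with such a call and a mean of 100 or more, by strain and side. There the pituitary was the highest for 39.2% to 40.8% and the lowest for 40.1% to 42.1%. The hippocampus was the highest for 20.4% to 22.3% and the lowest for 24.8% to 29.1%. For the hypothalamus these shares were 7.95% to 12.6% and 6.19% to 7.30%. They were 15.2% to 22.5% and 14.1% to 17.3% for the pag, and 6.81% to 12.2% and 8.11% to 10.8% for the bnst. Selenos had 578 ± 57.8 (SD, n = 10) in the pituitary of the other strains and 165 ± 21.1 to 202 ± 11.4 in their other regions (limma, adjusted p = 4.87e-22), and in DBA/2J its pituitary arrays, at 105 and 107, were also the highest. Arhgap21 was highest in the hippocampus of the other strains, at 1149 ± 104, and at 612 ± 36.5 in their pituitary (adjusted p = 3.78e-13). Atxn1 had 461 ± 78.5 in the hippocampus and 152 ± 20.1 in the pituitary of the other strains (adjusted p = 2.90e-16). Among the higher members, Nme7 was at 922 and 935 on the pituitary arrays of C3H/HeJ and at 491 and 552 on those of the hippocampus (adjusted p = 8.93e-07). Mtm1 did not pass this test in A/J with either probe set (adjusted p = 0.634 and 0.0939).

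The other 5 strains were not alike at every member either. They differed among themselves at 11 of 14 A/J members, 3 of 10 C3H/HeJ members, 14 of 25 DBA/2J members and 11 of 22 FVB/NJ members. The background was 35.7%, 37.6%, 35.5% and 38.0% of all probe sets, and 58.1%, 60.7%, 60.0% and 60.9% of those with a mean of 100 or more, and the rule, which asks that no array of the 5 strains crosses the outstanding one, bears on this spread. The ratio of the highest to the lowest mean of the 5 strains had a median of 1.24 over the members and reached 2 at 5 of them.

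At those the strain of the rule was the end of a graded series. Mtm1 1454904_at had 585 in A/J, then 131 in FVB/NJ, 110.1 in C57BL/6J, 99.4 in C3H/HeJ, 60.9 in DBA/2J and 36.8 in 129S6/SvEvTac (differences among the other 5, limma, adjusted p = 6.71e-15). Clip4 had 120.3 in A/J, 228 in DBA/2J, 229.6 in C3H/HeJ, 392 in C57BL/6J, 411 in FVB/NJ and 464 in 129S6/SvEvTac (adjusted p = 2.01e-16). DBA/2J and C3H/HeJ thus stood between A/J and the remaining strains. Sbsn had 16.2 in DBA/2J, 61.8 in A/J and 148 to 193 in the other strains (adjusted p = 4.09e-18). Myef2 1425349_a_at had 257 in C3H/HeJ, 107 in C57BL/6J, 106 in DBA/2J, 80.7 in A/J, 58.6 in 129S6/SvEvTac and 47.4 in FVB/NJ (adjusted p = 1.70e-12). The fifth was 1440862_at with 13.4 in FVB/NJ, 82.6 in A/J, 130 in DBA/2J, 153 in C57BL/6J, 202 in C3H/HeJ and 262 in 129S6/SvEvTac (adjusted p = 1.62e-11).

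At 2 of the genes lower in FVB/NJ, 129S6/SvEvTac stood between FVB/NJ and the other strains. Ndufs5 had 402 ± 97.5 in FVB/NJ, 790 ± 117 in 129S6/SvEvTac and 1160 to 1284 in the others (adjusted p = 1.62e-12), and Snhg12 had 82.2 ± 21.5, 243 ± 22.4 and 354 to 406 (adjusted p = 3.57e-11). In contrast Hccs, Nme7, Atxn1, Arhgap21, Glg1 and Capzb 1424168_a_at did not pass this test, and the ratio of the highest to the lowest mean of the other 5 strains was at most 1.10 at these, at Atxn1.

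The size of the strain difference depended on the region at 25 of the 71 members, without a change of direction. The counts were 3 of 14 in A/J, 4 of 10 in C3H/HeJ, 14 of 25 in DBA/2J and 4 of 22 in FVB/NJ (limma, F test), where the background was 1.99%, 2.50%, 3.51% and 2.52% of all probe sets and 3.11%, 4.53%, 6.42% and 4.47% of those with a mean of 100 or more. The rule used the average of the same difference, so these shares describe the whole array and are no test of the members. For 6 of the 25 the lower side was under 12.8, the floor of the log2 scale, in at least 1 region, and there the difference is limited by the floor. The counts rest in part on single arrays: without A/J pag replicate 1 the count for A/J was 1, without C3H/HeJ pituitary replicate 1 or 2 that for C3H/HeJ was 2, and without DBA/2J pituitary replicate 2 that for DBA/2J was 9. With all arrays scaled to the same median the A/J count was 1, and with a regression on the signals as deposited it was 9.

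Hbegf differed most in the pituitary. With 1418350_at the C3H/HeJ pituitary arrays had 646 and 649 against 46.7 to 97.7 in the others. The log2 difference was 3.31 there and 1.94 to 2.01 in the other 4 regions (adjusted p = 4.35e-06). C3H/HeJ was highest in the pituitary and the other strains were lowest there. With 1418349_at the pituitary difference was 3.79 and the others 1.60 to 1.94 (adjusted p = 0.00454, but 0.107 and 0.0623 without C3H/HeJ pituitary replicate 1 or 2). Casp9 1457816_at had its largest difference in the hippocampus, where the 2 arrays of C3H/HeJ had 127 and 149, and its smallest in the hypothalamus, where they had 56.2 and 62.5, with the other strains at or below 7.37 throughout (adjusted p = 2.91e-07). The other strains thus lay under the floor in every region, so the log2 differences of Casp9 are lower bounds that follow the level in C3H/HeJ.

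Among the DBA/2J members, the 4 higher ones that depended on the region all differed most in the pituitary, and of the 10 lower ones 6 differed least there, while Fam126b differed most there (-2.61). Over all probe sets with such a call for DBA/2J and a mean of 100 or more, 45.3% of the higher ones differed most in the pituitary and 19.6% of the lower ones differed least there. At 1500004A13Rik and Sbsn, which are 2 of the 6, DBA/2J lay under the floor in at least 1 region. The 4 higher ones were 1433438_x_at, with 445 and 477 on the pituitary arrays of DBA/2J and 138 and 165 on those of the pag (log2 differences of 5.02 and 3.56, adjusted p = 1.40e-05), 1456182_x_at (adjusted p = 0.00171), 1426787_at (adjusted p = 0.00322) and Sfi1 (adjusted p = 0.0113). At the first pair of these the other strains lay at or near the floor, so the log2 differences are lower bounds that follow the level in DBA/2J. Since 1426787_at also lists Sfi1, it and Sfi1 cannot be counted as separate genes. Without DBA/2J pituitary replicate 2 the adjusted p was 0.158 for 1426787_at and 0.0888 for Sfi1, and without replicate 1 it was 0.110 for Sfi1. Sfi1 had 663 and 681 in the pituitary of DBA/2J against 121 to 197 in the other strains. Neat1 in the pag had 56.8 and 75.8 in DBA/2J against 294 to 778, a log2 difference of -2.96, and in the pituitary 145 and 201 against 300.0 to 623, a difference of -1.41 (adjusted p = 5.27e-05). Prex2 differed by -2.80 in the hypothalamus and by -1.37 in the pituitary (adjusted p = 0.000632), where its level in the other strains was 72.6 ± 18.7 against 245 ± 60.4 in the hippocampus.

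In A/J, Commd9 1438644_x_at had the smallest p, with a log2 difference of -2.18 in the pituitary and of -1.38 in the hippocampus (adjusted p = 0.00425). A/J was nearly level between regions, at 109 to 129 in the means, while the other strains had 288 in the hippocampus and 588 in the pituitary. The adjusted p was 0.134 with arrays scaled to the same median and 0.0681 without A/J hippocampus replicate 2. In FVB/NJ, Acad9 1453206_at had 1.86 and 8.35 in the bnst against 162 to 239 in the other strains, and 46.6 and 60.4 in the pag against 163 to 200.4, log2 differences of -3.98 and -1.78 (adjusted p = 1.47e-05). Mff had 92.1 and 110 in the pag of FVB/NJ against 311 to 568, and 219 and 221 in the hippocampus against 264 to 480.5, log2 differences of -2.04 and -0.62 (adjusted p = 0.00565, and 0.0858 with arrays scaled to the same median).

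**Figure D4:**
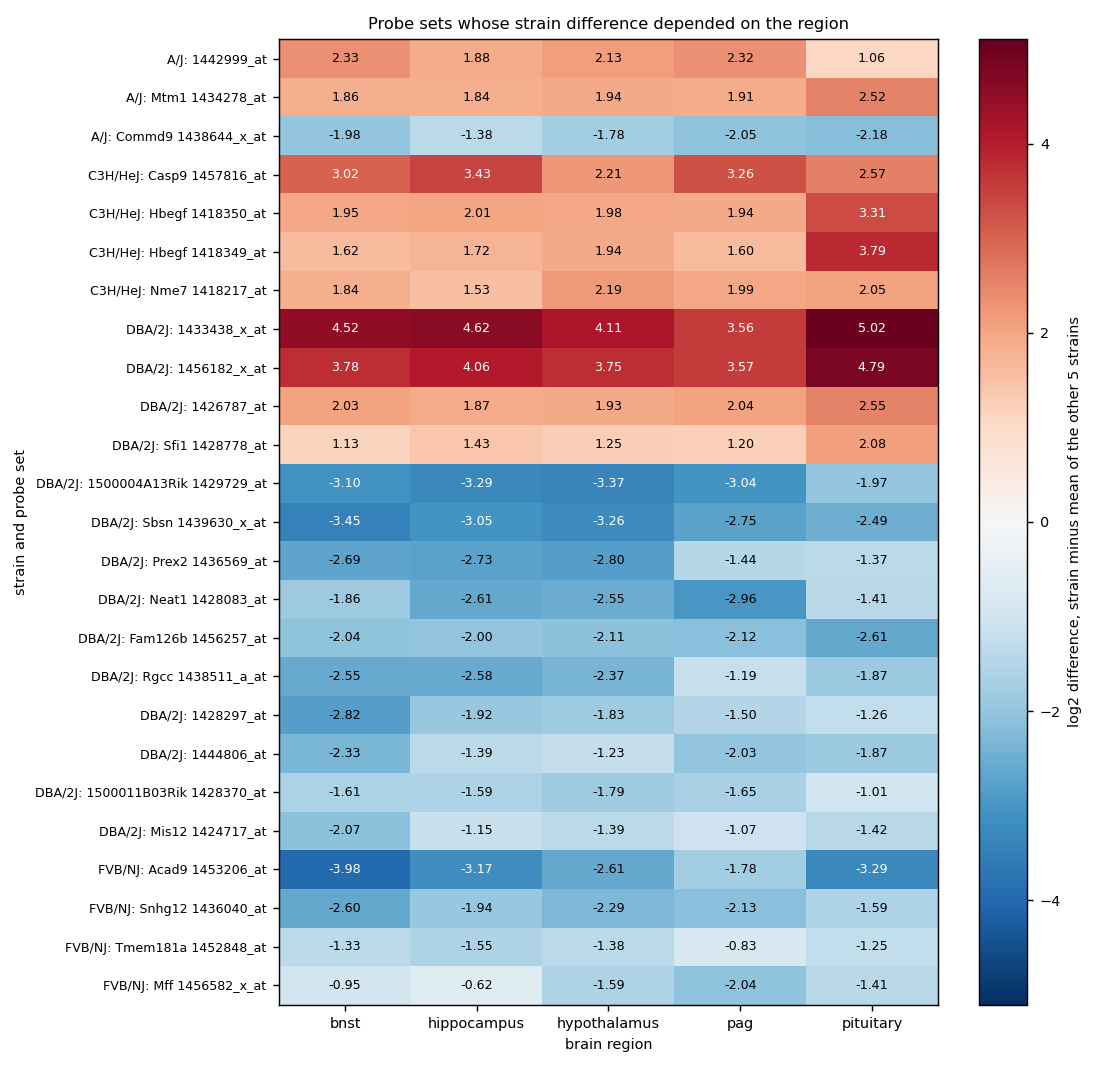
Log2 difference, strain minus the mean of the other 5 strains, in each region (columns) for the 25 members at which it depended on the region (rows), with red for higher and blue for lower in the strain and the value printed in each cell. Hbegf in C3H/HeJ has its largest differences in the pituitary (3.31 and 3.79), and Acad9 in FVB/NJ ranges between -3.98 in the bnst and -1.78 in the pag.

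Genes next to the members in the genome were not chosen by the rule, so smaller differences than at the members follow from the choice. The annotated neighbours on both sides give 81 measured genes, of which 42 reach a mean of 100. Each was read by its probe set with the highest mean over all arrays. None of the 42 differed by 2-fold or was separated, and 34 differed by less than 1.25-fold. Their median absolute log2 ratio was 0.11, and over all probe sets at this level it was 0.07 to 0.09, with 0.709% to 0.982% at 2-fold and 91.4% to 93.6% under 1.25-fold. A count of 0 at 2-fold is thus near the background, while the share under 1.25-fold was smaller than over all probe sets. The lowest ratio to the other strains was 0.536 at Adam17, next to Ywhaq, in A/J. Mccc1 and Zfp267, on either side of Acad9, were at 0.571 and 0.623 in FVB/NJ, and Ndufb1, next to Cpsf2, and 2610524H06Rik, next to 1500011B03Rik, were at 0.631 and 0.636 in DBA/2J, all on the side of the member. Other neighbours at this level went the opposite way to their member. Entpd3, next to Rpl14, was at 0.644 in DBA/2J, and Retreg3, next to Psmc3ip, at 0.701 in FVB/NJ, although both members were higher. Next to Mis12, which was lower, 6330403K07Rik was at 1.30 in DBA/2J. Mid1, next to Hccs, was just under a mean of 100, with 34.1 in C3H/HeJ against 99.1, on the side opposite to its member. No 2 member genes of a strain were adjacent. The closest were Psmb6, Mis12 and Zzef1 on chromosome 11, all lower in DBA/2J, with 30 annotated genes between Psmb6 and Mis12 and 52 between Mis12 and Zzef1. Of the probe sets of the genes between them that reach a mean of 100, 21 lie in the first interval, with none differing by 2-fold and a median ratio of DBA/2J to the others of 0.994, and 18 in the second, with 1 higher and 1 lower by 2-fold and a median of 1.01. The 3 genes were thus not part of a stretch in which all genes were lower.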

How the data were processed

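RNA of 5 brain regions of 6 inbred strains was measured on 61 Affymetrix 430 2.0 arrays. The authors processed the scanned arrays in TeraGenomics, and the deposited values are background-corrected, scaled intensities on a linear scale, 5.36% of them below 0; the version and the scaling target are not given in the sources used here, and detection calls were not used. The 64 control probe sets were left out. The rule was applied to the signals as deposited. Other tests used limma 3.58.1 in R 4.3.3 on log2 of the signal with values under the 20th percentile (12.8) raised to it, a mean for each of the 30 groups, an F test moderated with a trend, and Benjamini-Hochberg adjustment over the 44065 probe sets above the floor on at least 1 array (threshold 0.05; 31 residual degrees of freedom, prior median 3.44). The test was checked on simulated data. Values in text are medians and ranges, or means ± SD, over arrays. Python 3.11.15, pandas 2.3.3 and numpy 2.4.6 were used elsewhere.

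Groups and replicate numbers came from the labels; the methods describe independent animals. The correlation of deviations between arrays of the same number had a median of -0.0048 over 435 pairs of groups and ranged from -0.416 to 0.413. Pairs of regions within a strain, where mice could be shared, were not examined apart, so sharing of mice between regions was not tested. Genes come from GEO's platform annotation with symbols updated to RefSeq of GRCm38.p6. Named genes are, for each strain and direction, the 5 members with the largest ratio that name 1 gene, genes with several member probe sets, those nearest the limits and the smallest p by region; some others were named after their values were seen. The members and gene lists were chosen with earlier results of these data known. Alternatives were other floors, scalings, limits and filters, a regression on the deposited signals, a replicate block and each array left out.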

Additional observations from a re-analysis of the deposited data

Results flagged for a closer look

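The groups of strain and region hold 2 or 3 arrays, so no array was tested for lying far from the rest of its group. The results below are the members at which the difference between the strain and the other 5 strains was unequal in the 5 regions. The test was a limma F test of the difference itself, adjusted over 44065 probe sets. The threshold of 0.05 bounds the expected share of false calls among all calls on the array. It gives no such bound for the members, which were selected on the average of the same difference.

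In A/J the adjusted p was 0.00425 for Commd9, 0.0229 for 1442999_at and 0.0346 for Mtm1 1434278_at. In C3H/HeJ it was 2.91e-07 for Casp9, 4.35e-06 for Hbegf 1418350_at, 0.00454 for Hbegf 1418349_at and 0.0385 for Nme7.

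In DBA/2J the adjusted p was 1.40e-05 for 1433438_x_at, 0.00171 for 1456182_x_at, 0.00322 for 1426787_at and 0.0113 for Sfi1, all higher in DBA/2J. Among the members lower in DBA/2J it was 5.27e-05 for Neat1, 8.95e-05 for 1500004A13Rik, 0.000632 for Prex2, 0.000685 for 1444806_at, 0.00102 for Rgcc, 0.00627 for 1500011B03Rik, 0.0110 for Sbsn, 0.0162 for Mis12, 0.0169 for Fam126b and 0.0257 for 1428297_at. In FVB/NJ it was 1.47e-05 for Acad9 1453206_at, 0.00143 for Snhg12, 0.00565 for Mff and 0.0337 for Tmem181a.

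All 25 kept their direction in every region, which the rule itself requires. Of these, 13 lost the call on leaving out at least 1 array: 1442999_at, Mtm1, Commd9, Hbegf 1418349_at, Nme7, 1426787_at, Sfi1, Sbsn, Fam126b, 1428297_at, 1500011B03Rik, Mis12 and Tmem181a. The array was most often a pituitary array of the strain. The highest adjusted p so reached was 0.325, for 1428297_at without DBA/2J bnst replicate 2.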

How the results depend on the processing

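The number of members depended on the limits of the rule. With a ratio of at least 3 there were 8 members in A/J and 12 in FVB/NJ, and with a larger mean of at least 200 there were 8 in A/J, 6 in C3H/HeJ, 16 in DBA/2J and 11 in FVB/NJ; a ratio of 1.5, a mean of 50, a common median and quantile normalization kept each count within 1.5 times. With a common median the counts were 14, 8, 19 and 20 for A/J, C3H/HeJ, DBA/2J and FVB/NJ, and 13 of 14, 8 of 10, 17 of 25 and 17 of 22 members were kept, so 8 DBA/2J members no longer met the rule; quantile normalization kept 13, 9, 23 and 20. Leaving out 1 array gave 14 to 16 members in A/J, 8 to 11 in C3H/HeJ, 23 to 28 in DBA/2J and 22 to 25 in FVB/NJ. Removing an array cannot undo a separation, so a member could be lost there only through the limits on the ratio and the mean.

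Scaling all arrays to the same median gave 1 A/J member whose difference depended on the region and 5 C3H/HeJ members with differences among the other strains. The regression on the signals as deposited gave 9 A/J members whose difference depended on the region and 13 with differences between regions. Leaving out 1 array gave, for differences between regions, 8 to 9 members in A/J, 7 to 8 in C3H/HeJ, 22 to 24 in DBA/2J and 17 to 18 in FVB/NJ; for differences among the other strains, 9 to 11, 2 to 4, 12 to 15 and 8 to 12; and for differences that depended on the region, 1 to 4, 2 to 5, 9 to 15 and 3 to 6. The cause was not tested. With the replicate number as a block the counts for the difference by region were 3, 4, 15 and 4, with 1 call gained. No log2 difference of a member reversed under the alternatives run, which the complete separation asked by the rule made nearly certain beforehand.

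With 2 arrays in most groups, small region effects are beyond the precision of these data, and signals under about 12.8 have no order on the log2 scale.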
